A study of Caenorhabditis elegans with 2 samples.

Results

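The genes that encode aminoacyl-tRNA synthetases and translation factors were examined in a ChIP-seq experiment on LIM-6, a LIM homeodomain transcription factor of Caenorhabditis elegans. The set was defined by gene symbol and held 71 of the 19985 protein-coding genes of the WBcel235 annotation. It took the synthetases (symbols of the type ears-2) and the genes whose symbols start with eif-, eef-, ife-, ifg-, iff- or ifet-. It comprised 31 synthetases, 27 initiation factors, 6 elongation factors and 7 genes of the cap-binding complex or its regulators. The factors were grouped by symbol and not by function, so every eif- and iff- gene was counted as an initiation factor. The synthetases were 12 mitochondrial, 15 cytosolic and 4 called single-gene here. These 4 have a single symbol of this naming and no compartment in their RefSeq description. Others with a single symbol, such as mars-1 and wars-1, were counted by the compartment that their description names, and vars-1 as mitochondrial.

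The worms were hermaphrodite late embryos of strain OP388, which carries the insertion wgIs388 in an unc-119(ed3) III background and produces LIM-6 with a GFP-FLAG tag at its C-terminus. Embryos were collected 5 hours after synchronization by bleaching, chromatin was sonicated, and tagged protein was precipitated with an anti-GFP antibody. There was 1 group with 2 biological replicates, so no contrast between conditions was possible. Whole embryos were used, so the signal is summed over all cell types, and neither a control library nor a ChIP of another factor was analysed here.

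Aminoacyl-tRNA synthetases join each amino acid to its tRNA, in the cytosol for proteins encoded in the nucleus and in mitochondria for the few proteins encoded by mitochondrial DNA. Initiation factors bring the initiator tRNA, the small ribosomal subunit and the capped mRNA together, and elongation factors deliver charged tRNAs and move the ribosome along. Protein synthesis is needed in every dividing or growing cell. LIM-6 is known in C. elegans for its part in the fate of a small number of neurons and other cells.

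The deposited files list regions with a signal value given by the authors, first in relaxed lists that include background (for each replicate and for both replicates pooled) and then as a list of reproducible peaks that passed the authors' test of the irreproducible discovery rate (IDR). A gene was counted when the summit of a region fell inside a stretch called the promoter window here, from 1000 bp upstream of any transcript 5′ end of the gene to 500 bp downstream of it. The pooled list held 25887 regions with signals of 20.5 to 1114 (median 27.9), the reproducible list held 570 with signals of 80.0 or more, and the lists of replicates 1 and 2 held 21953 and 27731 regions with lowest signals of 12.6 and 11.5. Read depth is unknown. For the 32 genes whose strongest pooled region overlapped a region in both replicates, the pooled signal was 0.663 to 1.15 times the sum of the replicate signals (median 1.00), so pooled and replicate signals are not on the same scale.

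The sequences at the summits of 4 reproducible peaks of the set and of yars-2, just under the reproducible list, are shown as the stretches under the signals described further on. They were read from the RefSeq genome of the same assembly (WBcel235, ce11) on the strand of the gene, 5′ to 3′, restricted to sequence outside annotated exons within 100 bp of the summit. Capitals mark matches to GAGAGA or GCGCG on either strand, and no other motif searched was found in them. The motif counts given further on use the whole 100 bp to either side, so the GCGCG counted at yars-2 is not in its printed stretch. The stretch at ears-2 (IV:390469-390559, minus strand) is the whole gap between the 5′ ends of ears-2 and its neighbour uncp-18. The others are eif-3.B (II:14795046-14795246, plus strand), ifet-1 (III:4475587-4475787, minus strand), mars-1 (IV:11635718-11635918, minus strand) and yars-2 (IV:4712625-4712755, minus strand).
ears-2: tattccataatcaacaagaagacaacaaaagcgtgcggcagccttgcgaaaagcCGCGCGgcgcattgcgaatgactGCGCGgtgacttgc
eif-3.B: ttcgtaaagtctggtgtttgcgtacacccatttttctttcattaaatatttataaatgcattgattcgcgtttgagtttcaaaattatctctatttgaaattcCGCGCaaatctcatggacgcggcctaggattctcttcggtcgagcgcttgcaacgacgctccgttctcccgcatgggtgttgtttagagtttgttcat
mars-1: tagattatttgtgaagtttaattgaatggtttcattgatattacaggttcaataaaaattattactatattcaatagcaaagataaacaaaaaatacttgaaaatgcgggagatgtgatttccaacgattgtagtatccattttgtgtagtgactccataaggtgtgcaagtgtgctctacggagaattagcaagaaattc
ifet-1: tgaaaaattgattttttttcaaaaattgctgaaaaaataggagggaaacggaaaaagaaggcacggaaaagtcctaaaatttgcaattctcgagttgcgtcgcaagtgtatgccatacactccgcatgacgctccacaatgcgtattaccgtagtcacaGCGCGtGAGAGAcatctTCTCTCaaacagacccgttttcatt
yars-2: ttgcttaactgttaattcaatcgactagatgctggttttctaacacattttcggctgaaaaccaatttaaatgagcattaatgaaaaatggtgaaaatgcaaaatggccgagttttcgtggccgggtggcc

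Reproducible peaks lay in the promoter windows of 6 of the 71 genes, ears-2, eif-3.E, eif-3.B, eif-3.I, mars-1 and ifet-1. This was 8.45% of the set, beside 2.61% of all protein-coding genes. Some relaxed region lay in the window of far more genes, 52 of 71 (73.2%), beside 41.0% of all genes. By replicate, 44 genes (62.0%) had a region in replicate 1, beside 36.8% of all genes, and 47 (66.2%) in replicate 2, beside 41.9%. Regions in both replicate lists were found for 35 genes (49.3%), beside 25.0% of all genes. Among genes with a pooled region, 11.5% of the set and 6.37% of all such genes had a reproducible peak. A pooled signal of at least 50 was reached by 18 genes (25.4%), beside 6.88% of all genes, and the median of the highest signal over genes with a region was 37.8 in the set and 31.1 over all genes. All of these shares were higher in the set than over all genes. They are not separate evidence, since the 6 peaks had the same ranks in the reproducible and pooled lists and pooled signals over 50. No test was made, because the genes were not drawn at random and the design has no contrast.

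**Figure D1:**
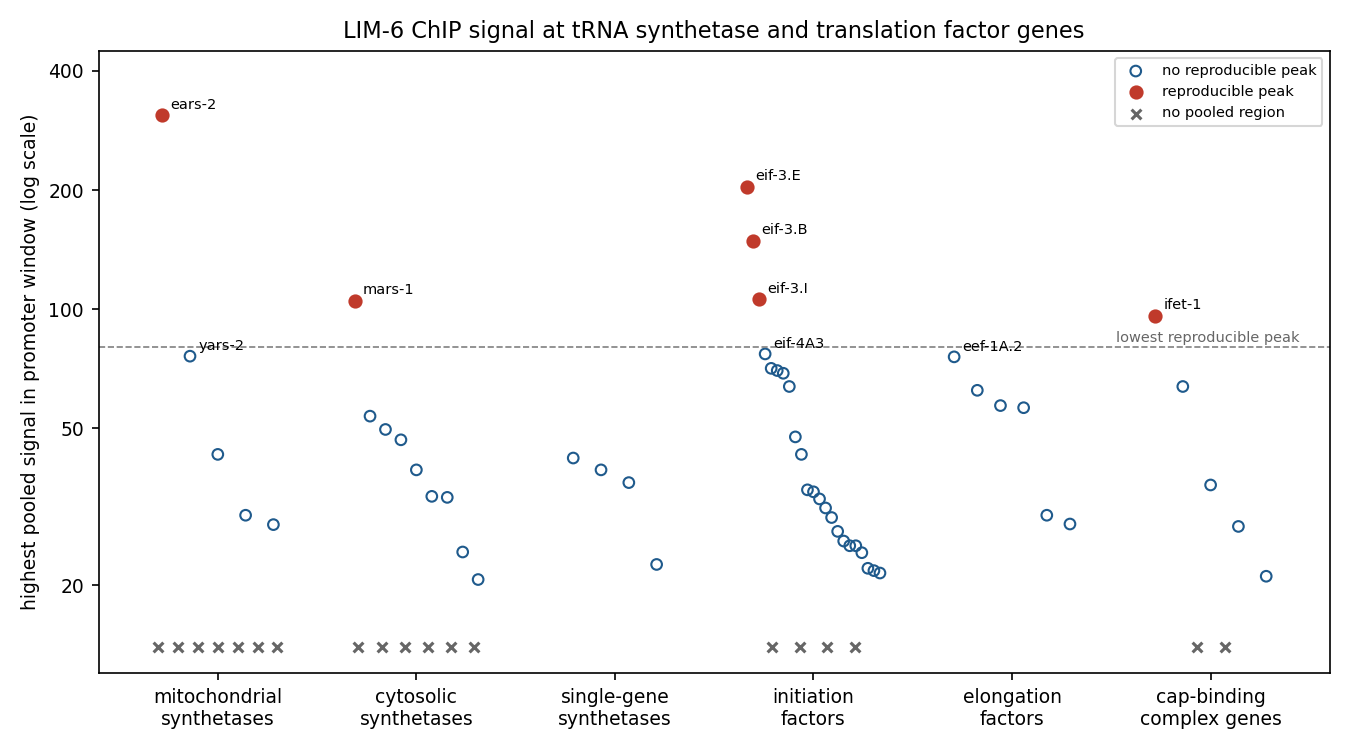
Highest pooled LIM-6 signal in the promoter window of each gene (log scale, signal as deposited), by subgroup, with 1 point a gene in descending order. Filled points are the 6 genes with a reproducible peak, from 96.2 at ifet-1 to 309 at ears-2, open points are genes with a relaxed region alone, crosses at the bottom mark genes with no pooled region, and the dashed line is the lowest reproducible signal in the genome, 80.0.

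Among the mitochondrial synthetases, the strongest signal of the whole set was at ears-2, which encodes the mitochondrial glutamyl-tRNA synthetase. Its region (IV:390352-390613) had a pooled signal of 309 and ranked 6 of 25887. The signal was 155 in replicate 1 (rank 6) and 151 in replicate 2 (rank 13), so the replicates gave nearly the same value. The summit lay in intergenic sequence 30 bp upstream of ears-2 in the pooled data, 33 bp upstream in replicate 1 and 39 bp upstream in replicate 2. The same summit lay 62 bp upstream of uncp-18, which is transcribed away from ears-2, so the signal cannot be given to either gene alone.

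The second mitochondrial synthetase by signal was yars-2, for tyrosine, with 31.0 in replicate 1, 45.1 in replicate 2 and 76.0 in the pooled list, 31 bp upstream of a 5′ end and with no other gene's window at that summit. It missed the reproducible list, whose lowest signal was 80.0. The alanine enzyme aars-1 had a pooled signal of 42.9, and sars-2 (serine) and vars-1 (valine) had 30.1 and 28.5, not far above the lowest value in the list. Numbers in the symbols do not always mark the compartment, and aars-1 is the mitochondrial and aars-2 the cytosolic enzyme by their RefSeq descriptions. In total, 5 of the 12 mitochondrial synthetases (41.7%) had a pooled region, close to the 41.0% of all genes. A reproducible peak was found at 1 (8.33%, beside 2.61% of all genes). A pooled signal of at least 50 was reached by 2 (16.7%, beside 6.88%). Regions in both replicate lists were found for 5 (41.7%, beside 25.0%). These were aars-1, ears-2, vars-1, yars-2 and, without a pooled region, pars-2. sars-2 had regions in replicate 1 alone.

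Of the 15 cytosolic synthetases, 9 (60.0%) had a pooled region and 1, mars-1, had a reproducible peak (6.67%), beside 41.0% and 2.61% of all genes. Regions in both replicate lists were found for 5 (33.3%, beside 25.0%), and 2 reached a pooled signal of at least 50 (13.3%, beside 6.88%). mars-1 encodes the methionine enzyme. Its peak (IV:11635606-11636029) had 66.0 in replicate 1, 37.9 in replicate 2 and 105 in the pooled list, and lay in intergenic sequence 331 bp upstream of a mars-1 5′ end. The replicates differed here by a factor of 1.74, and their ranks were 142 and 853. The summit also lay 830 bp upstream of F58B3.6 on the opposite strand. The next cytosolic synthetases were nars-1 (asparagine), with a pooled signal of 53.6, aars-2 (alanine) with 49.6, fars-1 (phenylalanine) with 46.7 and iars-1 (isoleucine) with 39.2. Those of fars-1 and iars-1 lay nearer to the 5′ ends of other genes, rbm-5 at 138 bp and pges-2 at 155 bp. The iars-1 region had a counterpart of 27.9 in replicate 2 and none in replicate 1.

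For 11 amino acids both a mitochondrial and a cytosolic gene were in the set, which allows the compartments to be compared within an amino acid. Both genes had a pooled region for alanine, glutamate and serine. The mitochondrial gene alone had one for tyrosine (yars-2), the cytosolic gene alone had one for phenylalanine, isoleucine and asparagine, and neither gene had one for aspartate, leucine, proline and arginine. The widest gap was at glutamate, where ears-2 had a pooled signal of 309 and ears-1 one of 20.7, near the bottom of the list and 492 bp inside the gene. For alanine the highest signals in the window were 25.2 and 21.3 in replicates 1 and 2 at mitochondrial aars-1 and 19.3 and 26.4 at cytosolic aars-2, so these ranges overlapped. For serine, the pooled signals of 30.1 at sars-2 and 24.3 at sars-1 were both based on replicate 1 regions (20.1 and 20.5), with none in replicate 2. Over the pairs, the mitochondrial gene had the higher pooled signal for 3 amino acids and the cytosolic gene for 4. This count takes a gene with no pooled region as the lower, as for tyrosine, phenylalanine, isoleucine and asparagine. By the replicate values above, alanine and serine have no firm order.

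**Figure D2:**
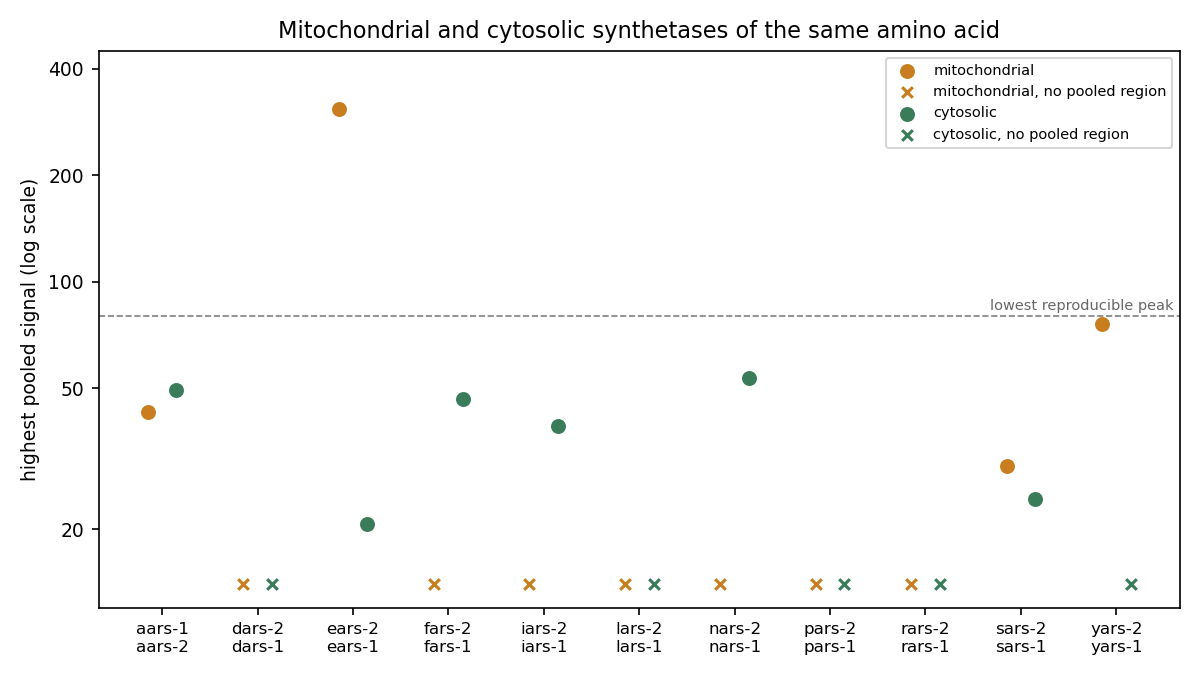
Highest pooled signal in the promoter window (log scale) of the mitochondrial gene (left, orange) and the cytosolic gene (right, green) for 11 amino acids, with crosses for genes with no pooled region. The pair ears-2 (309) and ears-1 (20.7) stands furthest apart, and 4 pairs have no region at either gene.

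The 4 synthetases called single-gene here all had a pooled region but no reproducible peak, beside 41.0% and 2.61% of all genes. Of the others with a single symbol, mars-1 had a reproducible peak and wars-1 no region in any list. Their pooled signals were 42.0 at hars-1 (histidine), 39.2 at kars-1 (lysine), 36.4 at gars-1 (glycine) and 22.6 at qars-1 (glutamine). hars-1 was even between replicates, with 23.4 in replicate 1 and 24.4 in replicate 2, whereas kars-1 had 31.5 and 14.1. The regions of gars-1 and qars-1 had counterparts in replicate 2 and none in replicate 1.

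Initiation factors had pooled regions at 23 of 27 genes (85.2%, beside 41.0% of all genes). Reproducible peaks were found at 3 of them (11.1%, beside 2.61% of all genes). All 3 encode subunits of eIF3, the large scaffold that holds the small ribosomal subunit during initiation. The peak of eif-3.E had 109 in replicate 1, 93.8 in replicate 2 and 204 in the pooled list, rank 34, and lay 210 bp upstream of the gene. It was also 538 bp upstream of B0511.17 on the opposite strand. The peak of eif-3.B (II:14795058-14795169) had 103 in replicate 1, 46.4 in replicate 2 and 149 in the pooled list. It lay 258 bp upstream of eif-3.B in intergenic sequence and in no other gene's window, and it was the least even of the 6 peaks, with a ratio of replicate 1 to replicate 2 of 2.23. The peak of eif-3.I had 49.8 in replicate 1, 53.8 in replicate 2 and 106 in the pooled list. Its summit was in an intron of eif-3.I itself, 504 bp upstream of an internal 5′ end, and was not counted when only the outermost 5′ end of each gene was used.

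Over all 11 eIF3 subunits in the set, 8 had a pooled region and 3 a reproducible peak (72.7% and 27.3%, beside 41.0% and 2.61% of all genes). eIF3 was not among the planned subgroups. Its 3 peaks are the ones already described, so this share is not separate evidence. In the same complex eif-3.K and eif-3.L had no region in any list and eif-3.F had one of 12.9 in replicate 1 alone. The 3 subunits of eIF2, the GTPase that carries the initiator tRNA, had pooled signals of 25.2 to 34.5, and 4 of the 5 subunits of eIF2B, its exchange factor, had 21.5 to 63.7, with none at eif-2Bbeta. None of these few eIF2 and eIF2B genes had a reproducible peak, beside a share of 2.61% over all genes.

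Other initiation factors came just under the reproducible list. eif-4A3, the helicase of the exon junction complex, had 29.2 in replicate 1, 47.4 in replicate 2 and 77.0 in the pooled list, with a summit 20 bp from the 5′ end of vps-20, which encodes an ESCRT-III subunit. eif-1, a factor of start codon choice, had 37.0, 36.4 and 70.8, with a summit 5 bp from the 5′ end of vps-24, another ESCRT-III gene. In both cases the neighbour's 5′ end was much nearer than that of the initiation factor. A further 3 genes, named after their values were seen, had pooled signals over 50: iff-2, an eIF5A gene, with 69.9, eif-3.C with 68.8 and eif-2Bgamma with 63.7. The last of these lay 944 bp upstream, in an intron of C15F1.5, and was the single region of the set with a small RNA gene within 250 bp, near mir-1831 and sup-39.

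The elongation factors had the highest median signal of the 6 subgroups and no reproducible peak. All 6 had a pooled region and 5 had regions in both replicates (83.3%), beside 41.0% and 25.0% of all genes. For eef-1B.2 these were different regions, with summits at -931 bp in replicate 1 and -278 bp in replicate 2 relative to a 5′ end. The absence of a reproducible peak stands beside a share of 2.61% over all genes and was seen in 6 genes. Among these factors the median of the highest pooled signal was 56.6, against 37.8 over the set. eef-1A.2, one of a pair of genes for the factor that delivers charged tRNAs, had 37.5 in replicate 1, 37.8 in replicate 2 and 75.7 in the pooled list, and the other, eef-1A.1, had 33.0, 25.7 and 57.0. eef-1G, for a subunit of their exchange factor, had 31.8, 28.2 and 62.3. These 3 genes were even between replicates. eef-2, for the translocation factor, had 15.0 in replicate 1 and 40.4 in replicate 2, with 56.3 in the pooled list. The exchange factor genes eef-1B.1 and eef-1B.2 were lower, with pooled signals of 30.1 and 28.6.

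Of the 7 cap-binding complex genes, 5 had a pooled region and 1 a reproducible peak (71.4% and 14.3%), beside 41.0% and 2.61% of all genes. The peak was at ifet-1, which encodes a translational repressor that binds eIF4E. The region (III:4475475-4475898) had 42.5 in replicate 1, 52.5 in replicate 2 and 96.2 in the pooled list. Its summit was 537 bp upstream of ifet-1 but 231 bp upstream of rps-1, a ribosomal protein gene on the opposite strand, so it was lost from the set when each summit was given to the nearest 5′ end alone. Among the eIF4E genes, which bind the mRNA cap, ife-4 had a pooled signal of 63.7 with 32.5 in replicate 1 and 25.8 in replicate 2, ife-2 had 35.9, ife-5 had 28.2 and ife-1 had 21.1. ife-3 and the eIF4G gene ifg-1, the scaffold of the complex, had no region in any list.

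**Figure D3:**
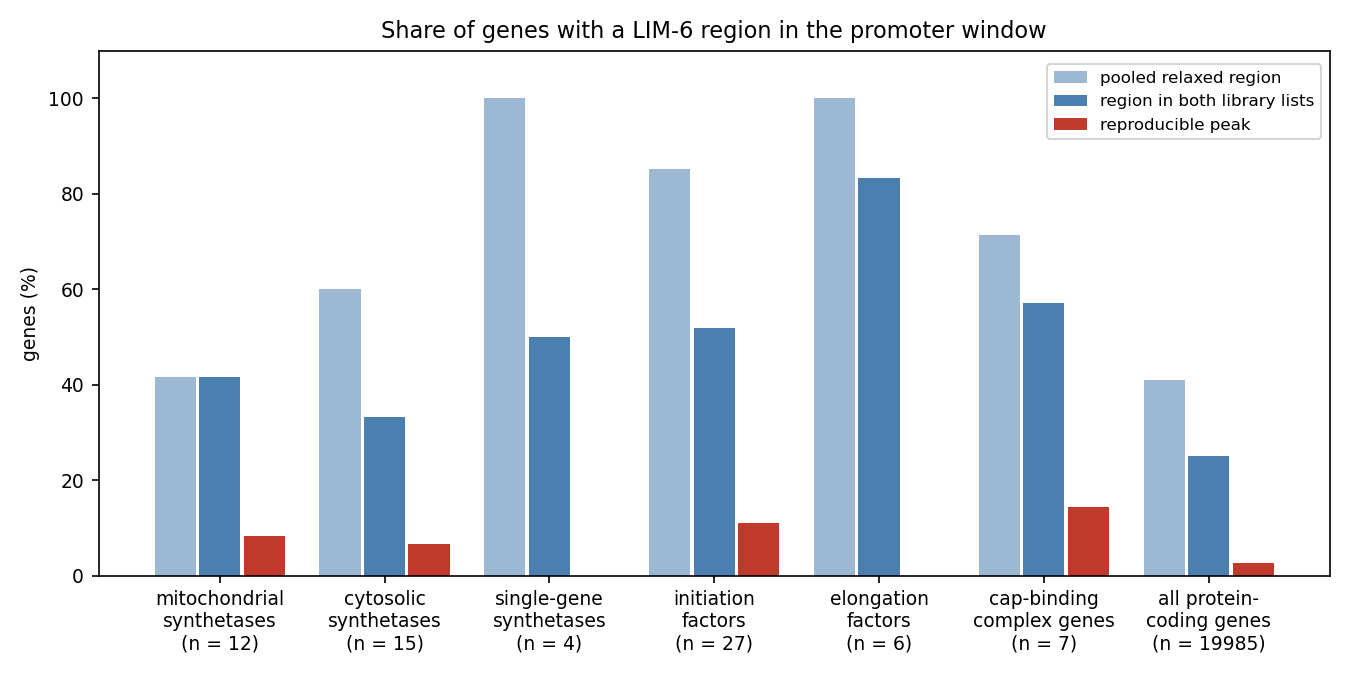
Percent of genes in each subgroup, and of all protein-coding genes at the right, with a pooled relaxed region, with regions in both replicate lists and with a reproducible peak in the promoter window. Pooled regions range from 41.7% of mitochondrial synthetases to all of the single-gene synthetases and elongation factors, beside 41.0% of all genes, and the smallest subgroups hold 4 and 6 genes.

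No region in any of the 4 lists was found for 14 of the 71 genes, or 19.7%, beside 44.4% of all genes. Synthetases made up 9 of the 14, which was 29.0% of the synthetases. The 14 genes were the mitochondrial dars-2, fars-2, iars-2, lars-2 and rars-2, the cytosolic dars-1, rars-1, wars-1 and yars-1, the initiation factors eif-2Bbeta, eif-3.K and eif-3.L, and ife-3 and ifg-1. A further 5 genes (eif-3.F, lars-1, nars-2, pars-1 and pars-2) had a region in a replicate list but none in the pooled list, with signals of 11.8 to 17.9. A gene absent from the lists had no region over the list's lowest signal, which does not show that LIM-6 was absent there. Taking synthetases together, 18 of 31 (58.1%) had a pooled region, and of the factors 34 of 40 did (85.0%), beside 41.0% of all genes. The difference between synthetases and factors was not tested.

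The replicates could be compared at 32 genes whose strongest pooled region overlapped a region in both lists. The log2 ratio of replicate 1 to replicate 2 had a median of -0.01 and an SD of 0.62 over genes, and 15 genes were higher in replicate 1 and 17 in replicate 2. The low end was shared by eef-2 and eif-3.D (both -1.43) and the high end by eif-3.B and kars-1 (both 1.16). Signals that differ by less than this spread, such as those of mars-1, eif-3.I and ifet-1, have no firm order. By summit in the promoter window instead, 35 genes had a region in both replicate lists, 9 in replicate 1 alone and 12 in replicate 2 alone. Regions in 1 replicate alone were found for 21 of the 71 genes, beside 5742 of all 19985 genes.

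**Figure D4:**
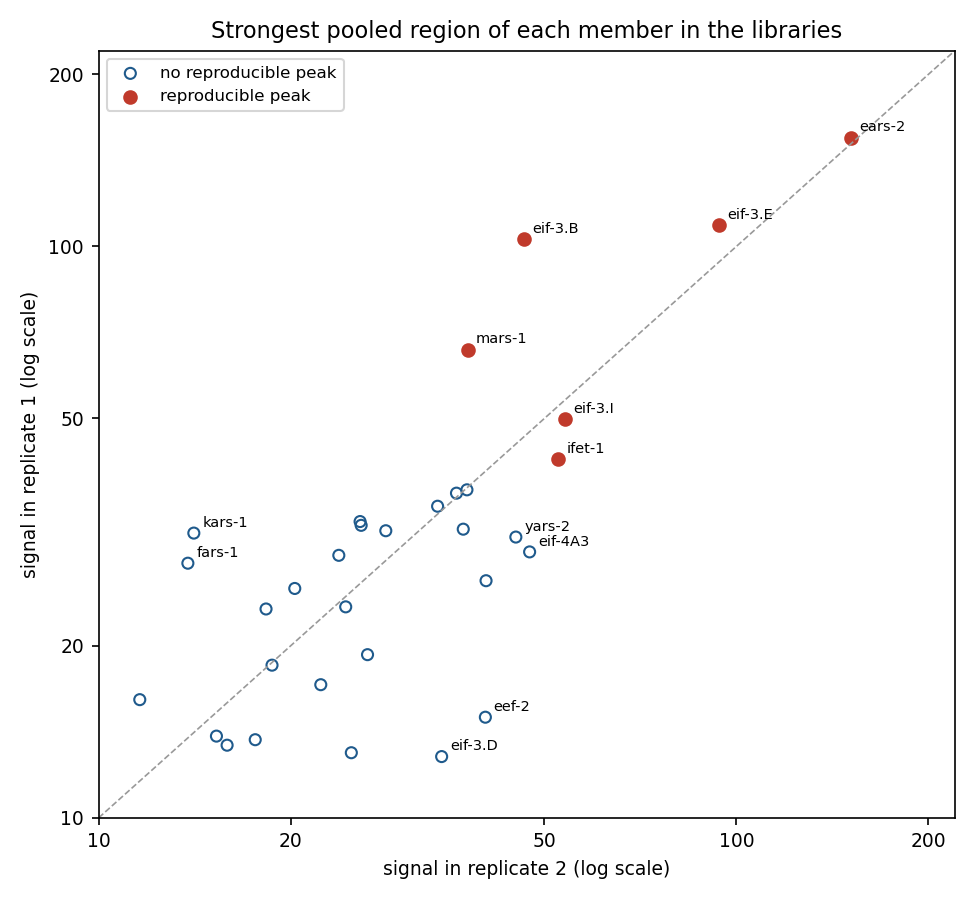
Signal in replicate 1 (vertical) against replicate 2 (horizontal), both on log scales, at the 32 genes whose strongest pooled region overlapped a region in both lists. The dashed line marks equal signal. ears-2, eif-3.E, eif-3.I and ifet-1 lie near the line, while eif-3.B, mars-1, kars-1 and fars-1 lie above it and eef-2 and eif-3.D below it.

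Summits of the 74 pooled regions in the set's windows had a median distance of 310.0 bp to the nearest 5′ end of their gene, beside 320.0 bp over all pairs of genes and regions, a distance that the window itself bounds. Of these regions 58 (78.4%) were upstream of that 5′ end, beside 69.8% over all pairs. The end can be internal, so some summits counted as upstream lay inside the gene, as at eif-3.I. The nearest 5′ end belonged to the gene itself for 56 and to another gene for 18. The summit lay in the window of at least 1 other gene for 42 of the 74 (56.8%), beside 28.8% over all pairs, so sharing with neighbours was common in the set.

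**Figure D5:**
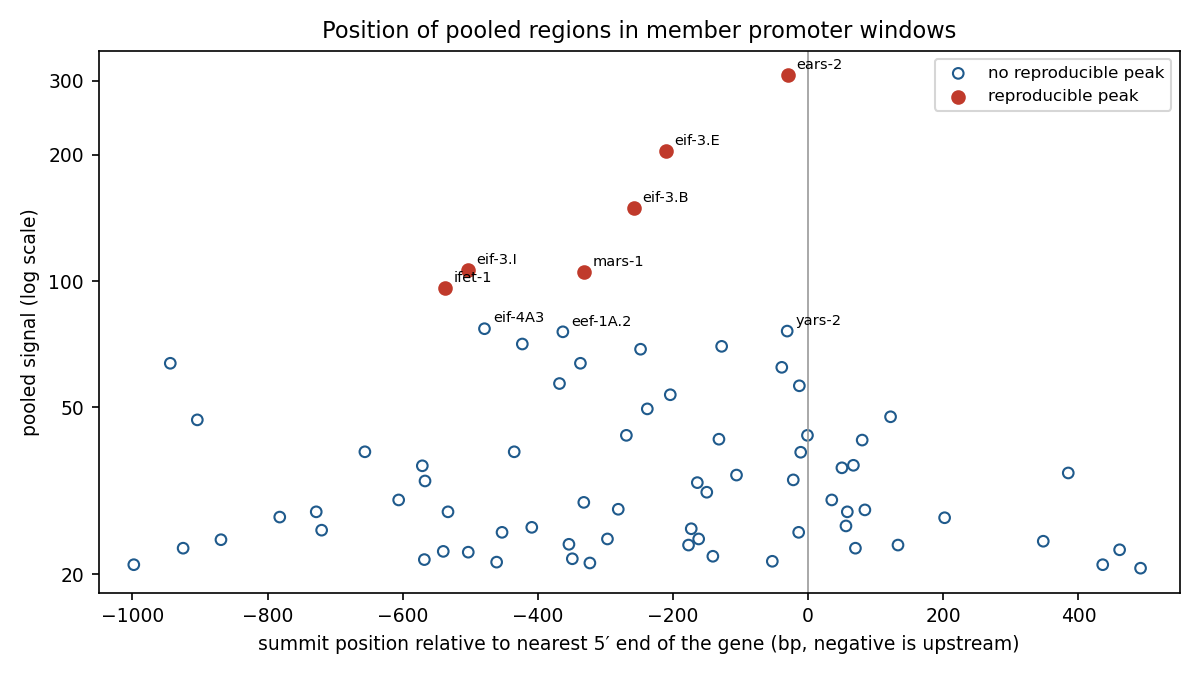
Pooled signal (log scale) of the 74 regions against the position of the summit relative to the nearest 5′ end of the gene (bp, negative is upstream). All 6 reproducible peaks, filled, lie upstream of a 5′ end, at 30 to 537 bp, while weak regions are spread over the whole window. For eif-3.I that 5′ end is internal and the summit is in an intron of the gene.

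The genes of the set also differed from other genes in how they are arranged. An opposite-strand 5′ end within 1000 bp upstream was annotated for 33 of the 71 genes (46.5%), beside 18.8% of all genes. In that class 87.9% of the set and 52.7% of all genes had a pooled region, and 4 genes of the set (12.1%) and 6.46% of all genes had a reproducible peak. Without such a neighbour the shares were 60.5% of the set and 38.3% of all genes for a pooled region and 5.26% (2 genes) and 1.72% for a reproducible peak. Genes with 2 or more annotated 5′ ends, which have more window to search, made up 52.1% of the set and 27.4% of all genes. Of genes with 1 annotated 5′ end, 70.6% of the set and 35.1% of all genes had a pooled region. Of genes with 2 or more, 75.7% of the set and 56.4% of all genes had one. Reproducible peaks were found at 3 genes of the set with 2 or more 5′ ends (8.11%, beside 4.13% of all such genes). Of those with 1, 3 had such a peak (8.82%, beside 2.04%). The peak counts are small, and the part of gene arrangement in the shares was not tested. Expression level was not measured, and its part in these shares was not tested.

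The sequence within 100 bp of each summit was searched for motifs in both orientations. TAATTA, the core that LIM homeodomain proteins bind, was found at 6.76% of the 74 regions and 7.58% of all pooled regions, and at none of the 6 reproducible peaks, beside 9.63% of all reproducible peaks in promoter windows. GAGAGA was at 18.9% and 17.6%, CACGTG, the E-box of MYC-type factors, at 5.41% and 4.53%, and TGATGNAA, an element of ATF-4 type factors, at 4.05% and 4.41%. Over the relaxed regions these shares were close to those of all regions. GAGAGA was present at ifet-1 alone among the 6 peaks (16.7%), beside 29.7% of all reproducible peaks in promoter windows. No test was made of these counts over 6 peaks. A match or its absence in this window says nothing by itself about how LIM-6 came to be there.

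The letters GCGCG were added after the printed sequences had been seen, since they recur in that of ears-2. They were found at 32.4% of the 74 regions, beside 18.7% of all pooled regions in promoter windows, and at 5 of the 6 peaks (83.3%), beside 44.1% of all reproducible peaks in promoter windows. mars-1 was the exception, and its summit window was also the lowest in GC content of the 6, at 30.8%, while the others had 40.8 to 45.3%. The printed peaks of ears-2, eif-3.B and ifet-1 are among the 5 with GCGCG, so this count was partly fixed by the choice of letters. No test was made of it. Median GC content was 40.8% in the set's regions and 40.8% in all pooled regions in promoter windows. The sequence was unique in the genome for nearly all of the set, with at least 90% unique 31-mers at 73 of 74 regions, beside 90.7% of all pooled regions. The exception was a region at tars-1 with 19.9%.

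Other genes of translation outside the naming rule were listed for comparison, and 14 of 17 listed symbols matched the annotation. The unmatched symbols were gfm-2, mtif-2 and mtif-3, which name mitochondrial factors, so these are missing from the counts. Of the 14 matched genes, 11 had a pooled region (78.6%) and 3 a reproducible peak (21.4%), beside 41.0% and 2.61% of all genes. Whether their peaks also lay in the windows of neighbouring genes was not examined. Of the 3 with a peak, 2 encode mitochondrial elongation factors. tufm-2, an EF-Tu gene, had 48.2 in replicate 1, 61.8 in replicate 2 and 111 in the pooled list, 181 bp upstream of its 5′ end, and gfm-1, an EF-G gene, had 48.2, 37.2 and 83.6. The other was erfa-3, for a cytosolic release factor, with 65.0, 39.2 and 102. Its partner erfa-1 had 59.7 in replicate 1 but 13.5 in replicate 2 and missed the reproducible list with 73.5. Over the 5 mitochondrial factors listed, tufm-2, gfm-1 and mrrf-1 had a pooled region, tufm-1 had a region of 11.5 in replicate 2 alone, and tsfm-1 had none. No mitochondrial translation factor has a symbol of the rule, so the comparison of compartments for factors rests on these 5 genes, of which 2 had a reproducible peak. Among the factors of the set 4 of 40 did, and 2.61% of all genes. The difference was not tested.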

How the data were processed

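ChIP-seq of tagged LIM-6 was carried out on 2 biological replicates of 1 group. The authors deposited region lists in which each region has a signal value and a −log10 q-value, per the file layout, and the deposited notes on how lists were derived name an alignment and a control as input. The deposited −log10 q was 2.62 at every reproducible peak and was not used for ranking, and no p-values were filled in. The sources used here do not name the aligner or peak caller and give no read depth. The signal scale is the authors', so signals were ranked within a list. The ce10 lists were not used.

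Gene models were Ensembl release 115 and sequences RefSeq, both of WBcel235, the ce11 assembly. Windows covered 1000 bp upstream to 500 bp downstream of every annotated transcript 5′ end. Replicate values beside a pooled region are those of the strongest replicate region that overlaps it by at least 1 bp, and values by window are the highest with a summit there. Neighbouring pooled regions can share a replicate region. Compartments came from RefSeq descriptions where they name one and otherwise from the symbol number, with vars-1 taken as mitochondrial. Synthetases with a single symbol and no compartment named, other than vars-1, were called single-gene. Genes named are those with a reproducible peak, the 5 highest in each subgroup, the other-compartment partners of these, genes with no region, and eef-1B.2, eif-3.D, tars-1 and others said so in the text, named after their values were seen. The genes and lists were chosen with earlier results of these data known. Computation used Python 3.11.15, numpy 2.4.6 and pandas 2.3.3, and the window assignment was checked on planted summits.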

Additional observations from a re-analysis of the deposited data

How the results depend on the processing

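The number of genes with a reproducible peak was 4 to 7 under every alternative tried, against 6, while the share of all genes was 1.45 to 3.32%, against 2.61%. A window of 500 bp upstream to 250 bp downstream gave 4, without eif-3.I and ifet-1, beside 1.93% of all genes. A window reaching 2000 bp upstream gave 7, with ife-3 added, beside 3.32%. Giving each summit to the nearest 5′ end alone gave 5, without ifet-1, beside 1.82%. Using the outermost 5′ end of each gene, an alternative chosen after seeing the data, gave 5, without eif-3.I, beside 2.42%. Keeping the reproducible peaks above their median signal gave 5, beside 1.45%. Taking the 570 highest regions of a single replicate gave 6 without replicate 2, beside 2.55% of all genes. Without replicate 1 it gave 7, beside 2.49%, where mars-1 was lost and eif-4A3 and yars-2 were added. Cytosolic synthetases then numbered 0 to 1 and mitochondrial ones 1 to 2 with a single replicate left out, beside 2.49 to 2.55% of all genes. Genes with a pooled region numbered 41 in the narrow window, beside 27.7% of all genes, and 61 in the wide one, beside 52.1%. Genes in both replicate lists numbered 31 when regions had to overlap, beside 21.1% of all genes, and 24 when summits had to lie within 100 bp, beside 14.6%. With 1 replicate left out, the median highest signal was 22.2 to 24.8, since the scale of a single replicate is lower, and the median distance was 252 to 269 bp. Shares of regions with a motif within 50 bp of the summit were 1.35% for TAATTA (3.80% of all pooled regions), 9.46% for GAGAGA (10.0%), 2.70% for CACGTG (2.42%) and 18.9% for GCGCG (9.72%), and 2.70% for TGATGNAA. With 1 replicate left out they were 3.45 to 5.06% for TAATTA, 11.4 to 22.4% for GAGAGA, 2.53 to 5.17% for CACGTG and for TGATGNAA, and 31.6 to 36.2% for GCGCG. No paired analysis was possible because all samples belong to 1 group. Unknown depth and the lowest signal of each list limit what can be said of genes with no region.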
